A study of Mus musculus with 8 samples.

Results

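The genes of the major histocompatibility complex (MHC) and of antigen presentation were examined in RNA sequencing counts from 8 Myc-CaP tumors. The members were taken by name: every gene whose symbol starts with H2-, and B2m, Tap1, Tap2, Tapbp, Psmb8, Psmb9, Psmb10, Nlrc5, Ciita and Cd74. This gave 53 genes of the 38115 listed, 43 with an H2- symbol and 10 others. On the class I side stood 38 of them and on the class II side 13. The remaining 2, H2-Ke2 (a prefoldin subunit) and H2-Ke6 (a steroid dehydrogenase), carry the prefix for their map position and present no antigen. Of the 53 genes, 36 passed the low-count filter and were tested (25 class I, 9 class II and both of the others), while 17 did not.

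Myc-CaP is a prostate cancer cell line from a mouse that carries a MYC transgene in the prostate epithelium. Androgen sensitive (AS) or castrate resistant (CR) sublines were placed in the anterior prostate of FVB male mice, which were either intact or surgically castrated beforehand. The labels do not say which hosts were castrated, and they give no age. There were 2 AS primary tumors, 2 AS metastases, 2 CR primary tumors and 2 CR metastases. All tumors descend from a single cell line. The labels call the metastases matched without naming the matching primary tumor. Tumors of a single mouse may thus have been counted as separate samples, and the p-values may then be too small. Numbers 1 and 2 within a group only name tumors.

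MHC class I molecules sit on nearly all nucleated cells and show peptides from inside the cell to CD8 T cells. Each one is a heavy chain bound to beta-2 microglobulin, and its peptides are cut by the proteasome, moved into the endoplasmic reticulum by the TAP transporter and loaded with the help of tapasin. MHC class II molecules show peptides from endosomes to CD4 T cells and are largely kept to dendritic cells, macrophages and B cells, although interferon gamma can induce them elsewhere. Nlrc5 is the transactivator of class I genes and Ciita that of class II genes.

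Both transactivators act through a promoter module shared by class I and class II genes, in which an X box that holds the letters TGACG is followed by a Y box that holds ATTGG, the site of NF-Y. RefSeq promoter entries on GRCm38.p6 were found for 38 of the 53 members. In the 250 bases before the start, read on both strands, TGACG followed by ATTGG with 18 to 22 bases between them was present in 6 of these 38 members, against 71 of all 27025 promoters (0.263%). The spacing was chosen after the sequences had been seen. Alone, TGACG was present in 16 of the 38 members and in 17.9% of all promoters, and ATTGG in 31 members and in 34.5% of all promoters. The letters of an interferon-stimulated response element, GAAA and after any 2 bases GAAA again, were present in 3 of the 38 members (B2m, H2-T22 and H2-T23) and in 3.04% of all promoters. The members are related in sequence and are not independent of each other, and a match of letters is not a measured binding site.

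The 6 promoter stretches with the spaced pair are printed 5′ to 3′ on the strand of the gene, because they let a reader compare the class I and class II members described below. Capitals mark TGACG and ATTGG and, in B2m, also the match to the interferon-stimulated response element. They lie at chr17:34000349-34000418 (minus strand) for H2-K1, chr17:35262993-35263022 (plus strand) for H2-D1, chr17:35439061-35439129 (plus strand) for H2-Q7, chr17:37270158-37270227 (plus strand) for H2-M3, chr17:34287857-34287927 (minus strand) for H2-Aa and chr2:122147537-122147686 (plus strand) for B2m.
H2-K1: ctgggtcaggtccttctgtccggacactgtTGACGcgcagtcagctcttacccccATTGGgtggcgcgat
H2-D1: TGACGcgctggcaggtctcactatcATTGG
H2-Q7: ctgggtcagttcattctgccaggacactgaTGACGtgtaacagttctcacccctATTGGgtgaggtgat
H2-M3: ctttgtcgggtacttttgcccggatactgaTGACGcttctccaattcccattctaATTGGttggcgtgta
H2-Aa: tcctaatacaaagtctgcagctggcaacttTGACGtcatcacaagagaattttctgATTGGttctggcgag
B2m: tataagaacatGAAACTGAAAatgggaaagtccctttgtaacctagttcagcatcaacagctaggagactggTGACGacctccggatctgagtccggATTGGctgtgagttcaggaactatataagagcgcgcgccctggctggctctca
For H2-D1 only the pair itself is shown, because the gene annotation GENCODE M21 has an exon there. The stretch lies before the RefSeq start but inside the H2-D1 gene as GENCODE M21 places it. There were 19 bases between the letters in H2-Q7, 20 in H2-K1, H2-D1, H2-M3 and B2m, and 21 in H2-Aa. The interferon-stimulated response element in B2m began at position -139 from the start, upstream of the pair.

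Total counts ranged from 20905806 to 91886163, with a median of 72949495 in AS and 32748049 in CR tumors. The RS codes in the labels run in separate series for AS and CR tumors. What these codes number is not stated. Phenotype and code series therefore cannot be told apart. Depth overlapped: 3 CR libraries held fewer counts than every AS library, while CR primary tumor 1, with 76887592 counts, was deeper than both AS primary tumors. The label of prostate epithelium was checked against its markers: Krt8 was abundant, with a lowest value of 36.8 CPM, but Epcam, Cdh1, Krt18 and Pbsn stayed below 1 CPM in every tumor. The 8 markers of that list, some of which are not reported here, summed to 1307 to 3449.7 CPM. FVB mice carry the q haplotype of the MHC, while the reference genome is that of C57BL/6, which carries the b haplotype. Reads with more than 2 mismatches to the reference or with several matching locations were not counted, so levels of polymorphic class I and class II genes may be understated in all 8 tumors. As a measure of shared sequence, 9.64% of the windows of 1 read length in the longest H2-K1 transcript matched another gene's transcript with up to 2 mismatches, 12.4% in H2-D1, 12.4% in H2-K2, 29.98% in H2-Q7 and 51.8% in H2-T22, against 0% in B2m, Nlrc5, Psmb10, H2-M3, H2-Aa, H2-Ab1 and Cd74. B2m, Psmb10, Nlrc5, H2-DMa and Ciita each overlap a counted gene on the opposite strand, by 5398, 2710, 748, 3094 and 25888 bases, and whether the counting used the strand is not known here.

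CR and AS tumors were compared first, with tumor type as a term. Of the 36 members tested, 9 fell in CR tumors, 0 rose and the others did not pass the test. The 9 were the class I heavy chain genes H2-D1, H2-K1, H2-K2, H2-Q7 and H2-M3, the class I transactivator Nlrc5, the immunoproteasome subunit Psmb10, the class II alpha chain gene H2-Aa and the invariant chain gene Cd74. Among all 18889 genes tested, 10.1% passed the same threshold in either direction and 5.29% were lower, against 25.0% of the members. The fold change was below 0 on the log2 scale for 31 of the 36 members, and its median was -0.67 (class I -0.67, class II -0.78), against -0.00040 over all genes tested. At an unadjusted p under 0.05 stood 16 members, all lower, against 14.1% of all genes, and DESeq2 called 11 members, all lower, against 8.74%. Levels are given as CPM, counts per 1000000 of the TMM-scaled library. Every adjusted p comes from the quasi-likelihood test of edgeR, adjusted by the Benjamini-Hochberg method over all genes tested, and genes were called below 0.05.

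In 7 members all 4 CR tumors were below all 4 AS tumors: H2-D1, H2-K2, H2-Q5, H2-Q7, H2-M3, Psmb10 and Nlrc5. All 7 are among the 25 class I genes tested. They are not all separate observations, since 41.9% of the read-length windows of H2-Q5 matched other genes, most often H2-Q7. Over all genes tested, 9.51% were lower in every CR tumor, so 7 of 36 was read against that share. In 0 members were all CR tumors above all AS tumors, against 8.01% of all genes. With CPM by total counts in place of TMM, an alternative chosen after the data were seen, the 7 genes stayed without overlap and B2m and Tapbp joined them, against 10.5% of all genes, and again 0 members lay above, against 5.36%. The number of members called depended on single tumors. It was 4 without AS primary tumor 1, 2 without AS primary tumor 2, 1 without AS metastasis 1, 4 without AS metastasis 2, 13 without CR primary tumor 1, 2 without CR primary tumor 2, 1 without CR metastasis 1 and 2 without CR metastasis 2, and 399 to 3784 genes were then called in all. Nlrc5 was called in all 8 of these fits, and every member called in them was lower in CR tumors. The shares of all genes called lower were, in the same order of tumors, 2.18, 1.67, 1.10, 1.35, 11.6, 2.25, 1.73 and 2.63%. A count of 1 or 2 members cannot be set apart from such shares, and the 13 members stand beside the highest share, 11.6%. CR primary tumor 1 had the highest value of the 4 CR tumors in 20 of the 36 members, and AS metastasis 2 the lowest of the 4 AS tumors in 20. By total counts these were 19 and 13 members.

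**Figure D1:**
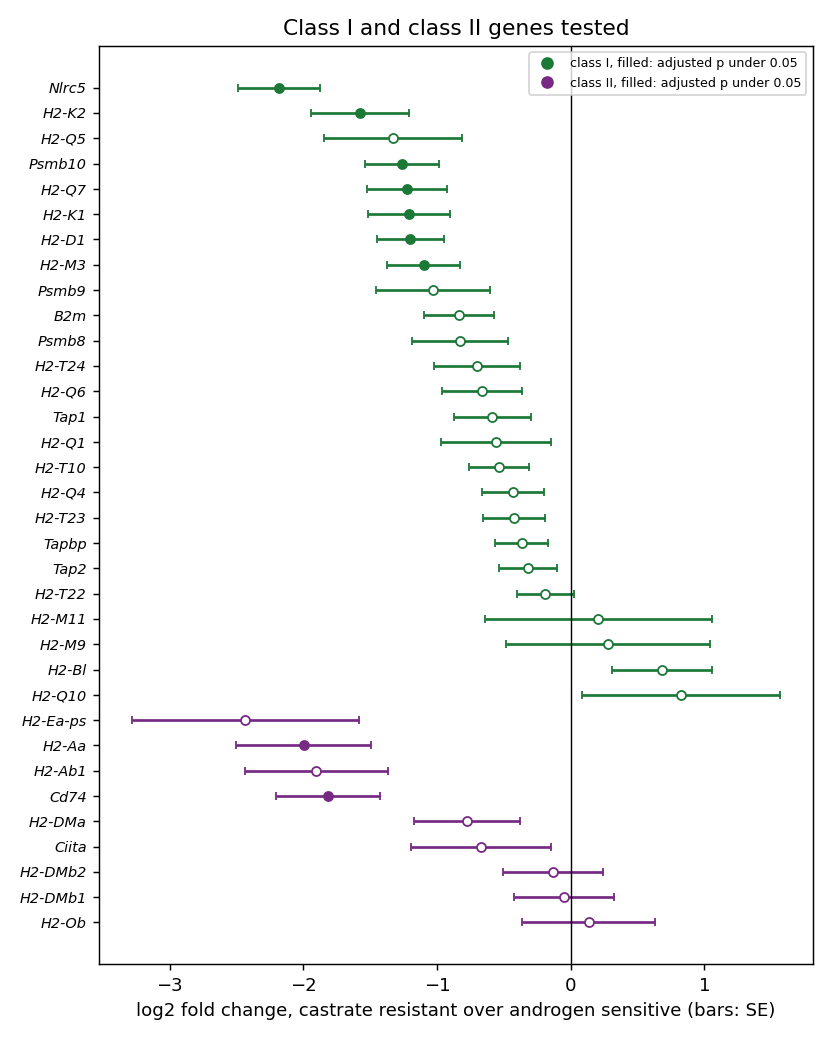
Log2 fold change of each class I (green) and class II (purple) gene tested, CR over AS tumors, with its standard error as a bar. Filled points have an adjusted p under 0.05; all 9 of them lie left of 0, Nlrc5 farthest left on the class I side at -2.18.

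H2-D1 and H2-K1 encode the classical class I heavy chains. H2-D1 (chr17:35262730-35267499 in GRCm38, as for all genes here) measured 398 and 517 CPM in AS primary tumors, 516 and 325 in AS metastases, 289.6 and 150.3 in CR primary tumors and 156 and 175 in CR metastases. Its groups did not overlap, since the lowest AS value, in AS metastasis 2, was above the highest CR value, in CR primary tumor 1. The mean was 439 ± 94.5 CPM in AS and 193 ± 65.4 CPM in CR tumors (SD, n = 4 each), a log2 fold change of -1.20 (SE 0.25, adjusted p = 0.0236). H2-K1 (chr17:33996017-34000347) measured 116 and 111 CPM in AS primary tumors, 168 and 72.7 in AS metastases, 77.7 and 38.1 in CR primary tumors and 41.4 and 46.6 in CR metastases. AS metastasis 2 and CR primary tumor 1 overlapped, and the other CR tumors were below every AS tumor. The log2 fold change of H2-K1 was -1.21 (SE 0.31, adjusted p = 0.0392). The ratio of H2-K1 to H2-D1 counts per kb of exon, taken within each tumor, was 0.232 ± 0.047 in AS and 0.231 ± 0.006 in CR tumors (SD, n = 4 each), so the 2 genes were lower by similar amounts. Without CR primary tumor 1 both calls were kept, but of the 8 fits that leave out 1 tumor H2-D1 was called in only 2 (without AS primary tumor 1 or CR primary tumor 1) and H2-K1 in only 1 (without CR primary tumor 1). Over these fits the log2 fold change ran from -1.49 to -1.05 for H2-D1 and from -1.55 to -0.90 for H2-K1, with adjusted p up to 0.0830 and 0.119 in edgeR's test.

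The other heavy chain genes lie in the K, Q, T and M regions of chromosome 17 and include non-classical molecules and pseudogenes. H2-K2, annotated as a transcribed pseudogene beside H2-K1, measured 25.4 and 31.3 CPM in AS primary tumors, 29.3 and 19.1 in AS metastases, 18.5 and 5.32 in CR primary tumors and 5.67 and 7.005 in CR metastases. CR primary tumor 1 was close to the lowest AS tumor, and the other 3 CR tumors were far below. Its log2 fold change was -1.58 (SE 0.37, adjusted p = 0.0316). H2-Q7, a Qa-2 gene of the Q region, measured 3.53 and 2.85 CPM in AS primary tumors, 2.82 and 3.55 in AS metastases, 1.06 and 1.22 in CR primary tumors and 1.08 and 2.23 in CR metastases, with no overlap and a log2 fold change of -1.22 (SE 0.30, adjusted p = 0.0359). H2-M3, which presents N-formylated peptides, measured 3.42 and 5.34 CPM in AS primary tumors, 4.61 and 3.32 in AS metastases, 2.64 and 1.91 in CR primary tumors and 1.34 and 1.94 in CR metastases, again with no overlap, and its log2 fold change was -1.10 (SE 0.27, adjusted p = 0.0365). H2-Q5 was also lower in all CR tumors, but at 0.461 to 0.693 CPM in AS and 0.0489 to 0.344 CPM in CR tumors its log2 fold change of -1.33 (SE 0.52, adjusted p = 0.139) did not pass the threshold. When 1 tumor was left out, H2-K2 was called only without CR primary tumor 1, H2-Q7 without CR primary tumor 1 or CR metastasis 2, and H2-M3 without CR primary tumor 1 or AS primary tumor 1. Their log2 fold changes then ran from -2.16 to -1.37, from -1.53 to -1.13 and from -1.29 to -0.99, with adjusted p up to 0.0975, 0.109 and 0.135 in edgeR's test.

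None of the 5 T region genes tested was called, and their log2 fold changes ran from -0.70 to 0.68, with adjusted p of 0.163 to 0.603. H2-T23 encodes Qa-1, the ligand of the inhibitory NKG2A receptor, and measured 8.35 to 12.8 CPM in AS and 6.32 to 11.1 CPM in CR tumors. H2-T22, whose product is recognised by some gamma delta T cells, measured 7.82 to 10.9 CPM in AS and 6.15 to 9.84 CPM in CR tumors. Of the 7 K and Q region genes tested 2 were called, and of the 3 M region genes 1, against 10.1% of all genes tested. Counts of H2-T10 are uncertain, since 47.4% of its windows matched H2-T22, and H2-T22, H2-T23 and H2-T24 each overlap a gene on the opposite strand.

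Summed over the 30 class I heavy chain genes, AS tumors measured 468 to 775 CPM and CR tumors 232 to 428 CPM. Per kb of exon, the scale on which genes can be compared, B2m led the members with a mean over all tumors of 2525 CPM per kb, followed by H2-D1 at 123, H2-K1 at 28.6, Tapbp at 20.3, Cd74 at 11.2 and H2-K2 at 10.3. The order of H2-K1 and Tapbp was not resolved in CR tumors, where the means were 17.3 ± 6.19 and 17.7 ± 4.77 CPM per kb (SD, n = 4). The order below them differed in CR tumors too, where H2-Ke2 averaged 8.14 ± 2.76, H2-K2 5.33 ± 3.69, Psmb10 4.91 ± 2.14 and Cd74 4.80 ± 0.981 CPM per kb (SD, n = 4), which was not resolved beyond the spread.

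B2m (chr2:122147686-122153083) encodes beta-2 microglobulin, the light chain that all class I heavy chains need to reach the surface. It measured 3213 and 2930.0 CPM in AS primary tumors, 3093 and 1841 in AS metastases, 1283 and 2481 in CR primary tumors and 1197 and 1338 in CR metastases. CR primary tumor 2 lay above AS metastasis 2 on this scale, but by total counts the pair measured 2039 and 2042 CPM and the groups did not overlap, and the other 3 CR tumors were below every AS tumor on both scales. The log2 fold change was -0.83 (SE 0.26, adjusted p = 0.0764), which did not pass the threshold. Without CR primary tumor 2, B2m was called, with a log2 fold change of -1.08 and an adjusted p of 0.0429 in edgeR's test, and the other fits that leave out 1 tumor gave adjusted p of 0.0673 to 0.229. B2m was the only gene of the 6 printed promoters that was not called, while 9 of all 36 members tested were called. Nlrc5, Psmb10, Cd74 and H2-K2 were called and are not among the 6. The patterns were chosen with earlier results known and the spacing after the sequences had been seen. A link between the pair and the calls was not tested.

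**Figure D2:**
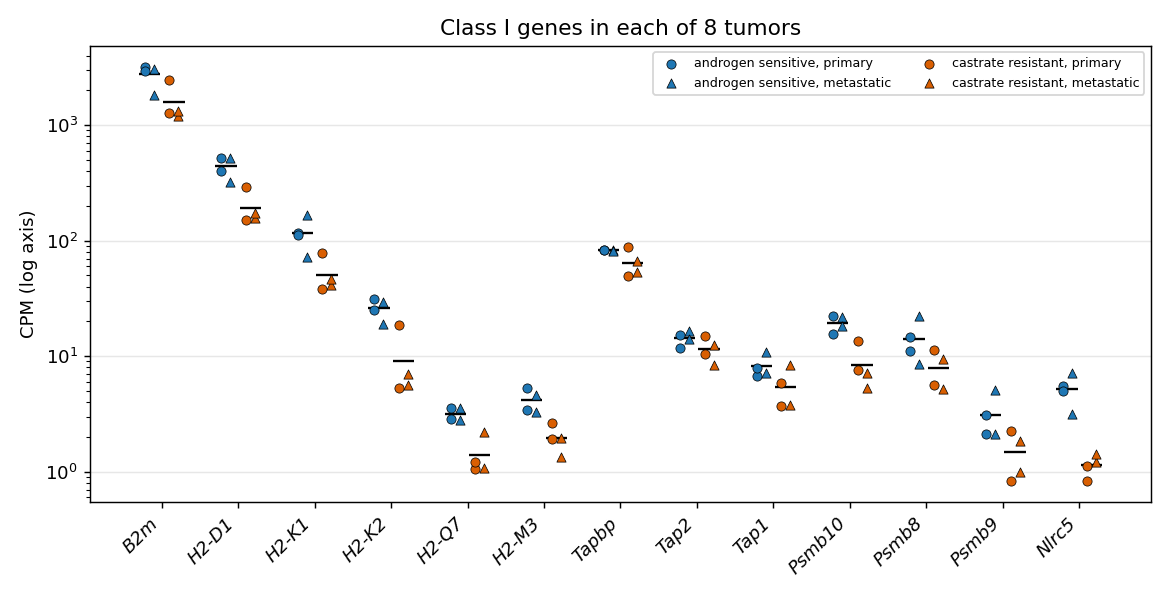
CPM on a log axis of 13 class I genes in each of the 8 tumors; blue marks AS and orange CR tumors, circles primary tumors and triangles metastases, and short lines are the means of 4 tumors. Nlrc5, H2-D1, H2-K2, H2-Q7, H2-M3 and Psmb10 show no overlap between the colors, whereas Tap1, Tap2, Tapbp, Psmb8 and Psmb9 overlap; B2m and Tapbp overlap on this TMM scale but not by total counts.

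No peptide loading gene was called. Tap1 and Tap2 encode the chains of the peptide transporter, and Tapbp encodes tapasin. Tap1 measured 6.72 and 7.86 CPM in AS primary tumors, 10.8 and 7.21 in AS metastases, 5.81 and 3.71 in CR primary tumors and 3.75 and 8.42 in CR metastases, with a log2 fold change of -0.59 (SE 0.29, adjusted p = 0.227). Tap2 measured 11.8 and 15.2 CPM in AS primary tumors, 16.5 and 14.1 in AS metastases, 14.9 and 10.5 in CR primary tumors and 8.32 and 12.6 in CR metastases, with a log2 fold change of -0.32 (SE 0.22, adjusted p = 0.376). For both genes the groups overlapped. Tapbp measured 83.9 and 83.1 CPM in AS primary tumors, 83.1 and 81.3 in AS metastases, 49.2 and 87.6 in CR primary tumors and 53.4 and 67.3 in CR metastases. Its 4 AS tumors were nearly equal, at 82.8 ± 1.10 CPM, while the CR tumors spread from 49.2 to 87.6 CPM (45.2 to 79.5 CPM by total counts, below every AS tumor), and the log2 fold change was -0.37 (SE 0.20, adjusted p = 0.263). Each of the 3 overlaps another counted gene, Tap1 sharing 212 bases with Psmb9 on the opposite strand.

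The immunoproteasome subunits Psmb8, Psmb9 and Psmb10 replace the constitutive subunits Psmb5, Psmb6 and Psmb7 when interferon induces them. Psmb10 measured 15.5 and 22.3 CPM in AS primary tumors, 21.8 and 18.4 in AS metastases, 13.6 and 7.52 in CR primary tumors and 5.27 and 7.09 in CR metastases. All CR tumors were below all AS tumors, and the log2 fold change was -1.26 (SE 0.28, adjusted p = 0.0267). Psmb8 measured 11.1 and 14.7 CPM in AS primary tumors, 22.2 and 8.60 in AS metastases, 11.4 and 5.67 in CR primary tumors and 5.21 and 9.39 in CR metastases, and Psmb9 2.13 and 3.09 CPM in AS primary tumors, 5.13 and 2.11 in AS metastases, 2.24 and 0.830 in CR primary tumors and 0.989 and 1.86 in CR metastases. Both overlapped between the groups, with log2 fold changes of -0.83 (SE 0.36, adjusted p = 0.177) and -1.03 (SE 0.43, adjusted p = 0.159). Without CR primary tumor 1 both were called, at -1.17 and -1.51 with adjusted p of 0.0464 and 0.0310 in edgeR's test. When 1 tumor was left out, Psmb10 was called only without AS primary tumor 1 or CR primary tumor 1, with log2 fold changes from -1.60 to -1.12 and adjusted p up to 0.0860 over the 8 fits.

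Ratios within a tumor do not depend on the library scaling. Per kb of exon, Psmb10 over Psmb7 was 0.347, 0.499, 0.465 and 0.420 in the AS tumors (0.433 ± 0.066, SD) and 0.290, 0.233, 0.186 and 0.176 in the CR tumors (0.221 ± 0.052, SD), without overlap. Psmb8 over Psmb5 was 0.081 ± 0.041 in AS and 0.061 ± 0.013 in CR tumors, and Psmb9 over Psmb6 was 0.044 ± 0.019 and 0.025 ± 0.008 (SD, n = 4), both with overlap. Psmb10 was thus lower relative to its constitutive partner in every CR tumor, and for the other pairs this did not hold.

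**Figure D3:**
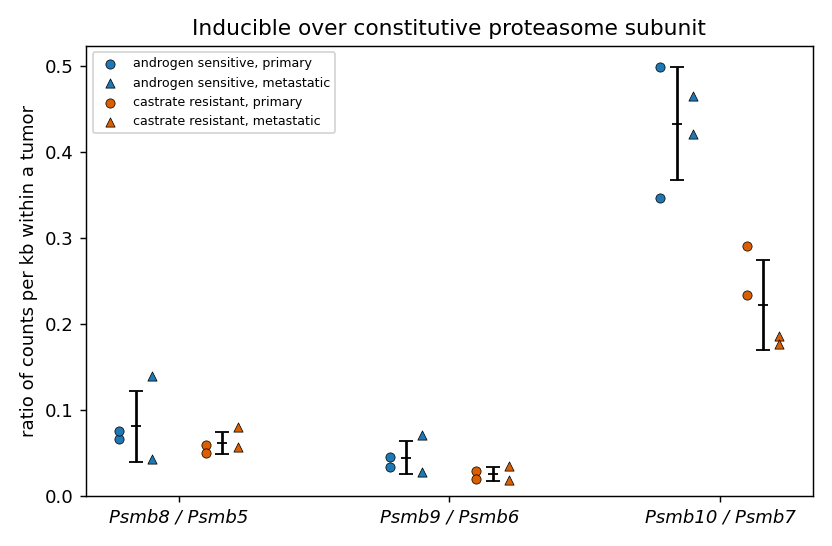
Ratio of each inducible proteasome subunit to its constitutive counterpart, as counts per kb of exon within a tumor; points are tumors (blue AS, orange CR, circles primary, triangles metastatic) and bars are mean ± SD of 4 tumors. Psmb10 over Psmb7 lies between 0.347 and 0.499 in AS and between 0.176 and 0.290 in CR tumors, and the other ratios overlap.

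Nlrc5 (chr8:94434356-94527272), the class I transactivator, showed the lowest adjusted p of all members. It measured 5.51 and 4.97 CPM in AS primary tumors, 7.10 and 3.19 in AS metastases, 1.12 and 0.830 in CR primary tumors and 1.22 and 1.42 in CR metastases. The highest CR value, 1.42 CPM, was below the lowest AS value, 3.19 CPM in AS metastasis 2. The mean was 5.19 ± 1.61 CPM in AS and 1.15 ± 0.245 CPM in CR tumors (SD, n = 4 each), a log2 fold change of -2.18 (SE 0.31, adjusted p = 0.00650), or 4.54-fold lower. When 1 tumor was left out at a time, the log2 fold change stayed between -2.43 and -1.99, with adjusted p of 0.00337 to 0.0287 in edgeR's test.

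On the class II side 2 of the 9 genes tested fell, against 5.29% of all genes tested. No class II gene was lower in all 4 CR tumors than in all 4 AS tumors, against 9.51% of all genes. With only 9 genes tested, 0 cannot be set apart from that share. Cd74, the invariant chain that guides class II molecules to endosomes, measured 49.5 and 27.1 CPM in AS primary tumors, 32.6 and 9.07 in AS metastases, 10.4 and 7.57 in CR primary tumors and 7.80 and 6.48 in CR metastases. AS metastasis 2 lay within the range of the CR tumors, and the other AS tumors were at least 27.1 CPM. The log2 fold change of Cd74 was -1.82 (SE 0.39, adjusted p = 0.0248). H2-Aa (chr17:34282744-34287823), the alpha chain of the classical class II molecule, measured 5.90 and 2.75 CPM in AS primary tumors, 3.16 and 0.677 in AS metastases, 1.16 and 0.782 in CR primary tumors and 0.640 and 0.405 in CR metastases, with the same overlap and a log2 fold change of -1.998 (SE 0.50, adjusted p = 0.0389). H2-Ab1, its beta chain, measured 5.26 and 2.92 CPM in AS primary tumors, 3.54 and 0.814 in AS metastases, 1.06 and 0.391 in CR primary tumors and 0.902 and 0.769 in CR metastases. Its log2 fold change of -1.90 (SE 0.54, adjusted p = 0.0554) was close to that of H2-Aa but did not pass the threshold. Without AS metastasis 2 the log2 fold change of H2-Ab1 was -2.30 and it was called, as were Cd74 and H2-Aa. Of the fits that leave out 1 tumor, Cd74 was called in 3 (without AS primary tumor 2, AS metastasis 2 or CR primary tumor 1) and H2-Aa in 2 (without AS metastasis 2 or CR primary tumor 1). The log2 fold change ran from -2.15 to -1.47 for Cd74 and from -2.32 to -1.52 for H2-Aa, with adjusted p up to 0.103 and 0.159 in edgeR's test.

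None of the genes that load class II molecules was called. H2-DMa, a chain of the peptide exchange factor H2-DM, measured 2.43 and 2.12 CPM in AS primary tumors, 1.59 and 1.47 in AS metastases, 2.04 and 1.17 in CR primary tumors and 0.320 and 1.13 in CR metastases, with a log2 fold change of -0.78 (SE 0.40, adjusted p = 0.246). H2-DMb1, a beta chain of the same factor, measured 0.839 and 1.91 CPM in AS primary tumors, 2.27 and 1.35 in AS metastases, 2.03 and 1.17 in CR primary tumors and 1.72 and 1.13 in CR metastases, with overlapping groups, and H2-DMb2 ranged from 0.928 to 2.77 CPM over all tumors. H2-Ob, a chain of the inhibitor H2-DO, measured 0.177 and 0.158 CPM in AS primary tumors, 0.218 and 0.147 in AS metastases, 0.197 and 0.244 in CR primary tumors and 0.175 and 0.162 in CR metastases. Of the windows of H2-DMb1, 44.9% matched H2-DMb2 and these counts are uncertain. Ciita, the class II transactivator, measured 1.02 and 0.792 CPM in AS primary tumors, 0.744 and 0.226 in AS metastases, 0.492 and 0.195 in CR primary tumors and 0.466 and 0.486 in CR metastases. Its groups overlapped and its log2 fold change was -0.67 (SE 0.53, adjusted p = 0.446). H2-Ea-ps, a class II alpha chain pseudogene in the reference strain, had 0 counts in both CR metastases and at most 0.258 CPM elsewhere, and was not called (adjusted p = 0.103).

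**Figure D4:**
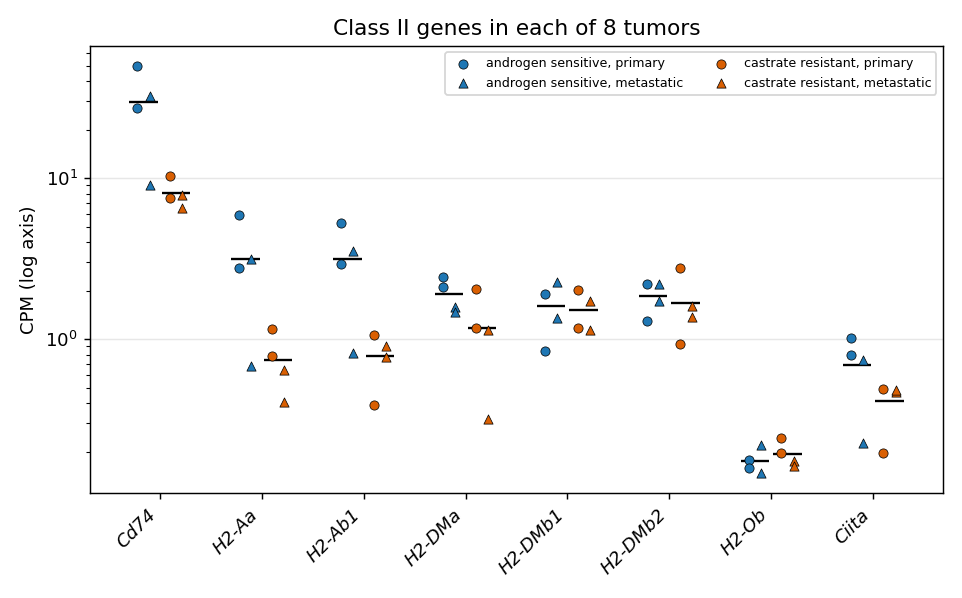
CPM on a log axis of 8 class II genes in each tumor; blue marks AS and orange CR tumors, circles primary tumors and triangles metastases, and short lines are the means of 4 tumors. In Cd74, H2-Aa and H2-Ab1 one AS metastasis sits among the CR tumors while the other AS tumors stand above them, and H2-DMb1, H2-DMb2 and H2-Ob overlap throughout.

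The 17 members that did not pass the filter had between 0 and 52 counts summed over the 8 tumors. H2-Eb1, the beta chain of the I-E class II molecule, had 52 counts: 17 and 9 counts in AS primary tumors, 8 and 4 in AS metastases, 9 and 2 in CR primary tumors and 2 and 1 in CR metastases. H2-Oa, a chain of H2-DO, had 25 counts: 10 and 3 counts in AS primary tumors, 3 and 4 in AS metastases, 4 and 0 in CR primary tumors and 1 and 0 in CR metastases. H2-Eb2 had 24 counts in all. H2-Pb had 0 counts in all tumors. The other 13 were class I genes of the M, Q and T regions with 1 to 37 counts, and 10 of them belonged to the M region. These levels were too low to compare. The 2 genes that present no antigen were tested and not called. H2-Ke2 measured 12.1 and 14.3 CPM in AS primary tumors, 14.6 and 12.5 in AS metastases, 14.5 and 7.52 in CR primary tumors and 9.05 and 7.73 in CR metastases, and H2-Ke6 averaged 4.57 CPM.

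Class II genes are mainly those of antigen presenting cells, so markers of such cells are given beside them. In bulk tumors, fewer cells of a type and less RNA per cell cannot be told apart. Summed over 12 class II genes, the AS primary tumors measured 66.1 and 39.6 CPM, the AS metastases 45.9 and 15.5, the CR primary tumors 19.9 and 12.5 and the CR metastases 13.2 and 11.7. Summed over 10 macrophage markers the range was 363 to 485 CPM in AS tumors and 178 to 415 CPM in CR tumors. The lowest sum was in CR metastasis 1. None of the 10 markers was at 0 in any tumor, and 0 were called, against 10.1% of all genes. At an unadjusted p under 0.05 stood 2 of them, against 27.1% of all genes, and DESeq2 called 1, against 18.6%. The macrophage sum of CR metastasis 2, 393 CPM, was close to the 389.7 CPM of AS primary tumor 1, where class II was highest. By total counts they were 464 and 394.7 CPM. CR primary tumor 2 was above AS primary tumor 1 with TMM, at 415 CPM, but below it by total counts, at 341 CPM. The 6 leukocyte markers summed to 98.5 to 145 CPM in AS tumors and 51.5 to 114 CPM in CR tumors. Against 10.1% of all genes, 1 of these 6 markers was called. Of these, Cd52, a leukocyte surface glycoprotein, fell, with a log2 fold change of -3.02 (SE 0.50, adjusted p = 0.0112), while Ptprc (CD45), the defining leukocyte gene, measured 19.7 and 22.9 CPM in AS primary tumors, 28.7 and 17.5 in AS metastases, 17.6 and 17.6 in CR primary tumors and 12.1 and 20.002 in CR metastases and was not called (adjusted p = 0.277). The 9 dendritic cell markers summed to 4.10 to 6.18 CPM in AS tumors and 4.10 to 6.66 CPM in CR tumors, with 0 of 7 tested called by either tool or at an unadjusted p under 0.05. Ms4a1 of B cells and Cd3e of T cells each had at most 10 counts in any tumor. Though few were called, most of these markers had a log2 fold change below 0, CR over AS. These were 8 of 10 macrophage, 5 of 6 leukocyte and 5 of 7 dendritic cell markers tested. The medians were -0.48, -0.56 and -0.49, against -0.00040 over all genes. The part of these cells in the class II values was not tested.

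**Figure D5:**
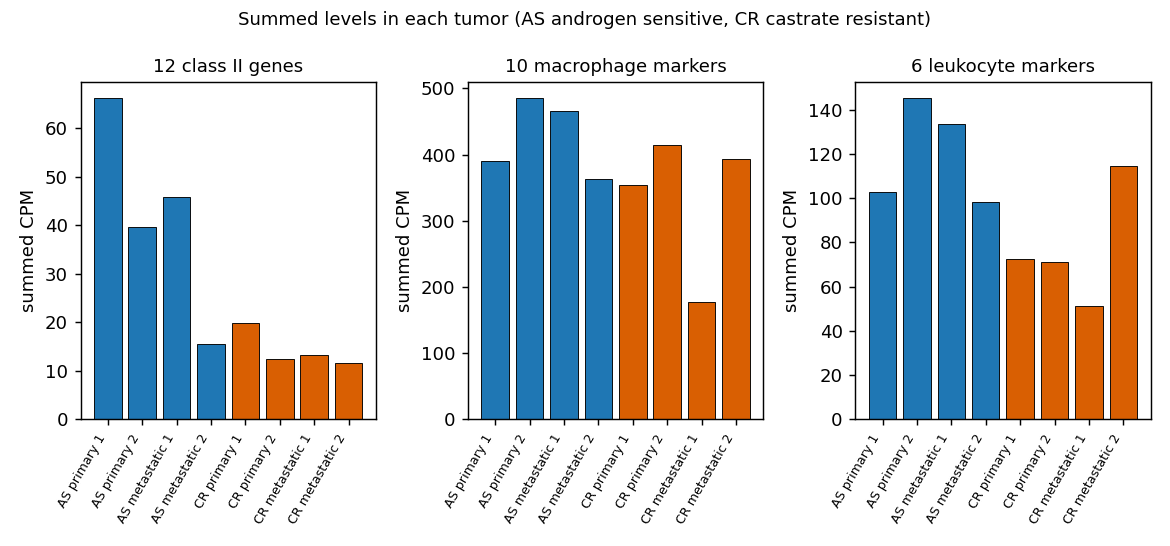
Summed CPM in each tumor of 12 class II genes, 10 macrophage markers and 6 leukocyte markers; blue bars are AS and orange bars CR tumors. The class II sum is highest in AS primary tumor 1, at 66.1 CPM. The macrophage sum there, 389.7 CPM, is near the 393 CPM of CR metastasis 2. That of CR primary tumor 2 is higher than 389.7 CPM on this TMM scale, but by total counts it is below that of AS primary tumor 1. In CR metastasis 1 the macrophage sum is lowest, at 178 CPM, and the class II sum is 13.2 CPM. The part of macrophages in the class II sums was not tested.

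In the other marker lists few genes were called. In the B cell (3 tested), T and NK cell (7), neutrophil (6), endothelial (6), fibroblast (6), prostate epithelium (6) and lung (1) lists 0 genes were called. At an unadjusted p under 0.05 these lists held 1, 1, 0, 2, 0, 2 and 0 genes, against 27.1% of all genes. DESeq2 called 1, 1, 0, 1, 0, 1 and 0, against 18.6% of all genes. Their median log2 fold changes were, in the same order, -0.86, -1.01, -0.59, -0.23, 0.09, 0.31 and -0.41. None of 5 seminal vesicle genes passed the filter. In the liver list 2 of 3 genes tested fell, Fgb and Ttr, against 5.29% of all genes. Fgb, a fibrinogen chain, measured 3715 to 10170 CPM in AS and 89.1 to 1940 CPM in CR tumors. Ttr had an adjusted p of 0.0488 in edgeR's test, while Alb had at most 99 counts in any tumor. Fgb was called in only 2 of the 8 fits that leave out 1 tumor, those without a CR primary tumor.

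Genes that act with the members were taken from a list of 39, of which 35 were tested. At an unadjusted p under 0.05 stood 7 of them, against 27.1% of all genes, and DESeq2 called 5, against 18.6%. Ctsd and Ctsl, endosomal proteases that cut proteins for class II loading, fell, and 0 of the 35 rose, so 2 of 35 was near the share of all genes that fell, 5.29%. Ctsl measured 429 and 503 CPM in AS primary tumors, 540.1 and 443 in AS metastases, 286 and 253 in CR primary tumors and 257 and 183 in CR metastases, with no overlap and a log2 fold change of -0.97 (SE 0.19, adjusted p = 0.0175). For Ctsd the log2 fold change was -1.002 (SE 0.18, adjusted p = 0.0136). Cathepsin S (Ctss), which trims the invariant chain, overlapped between phenotypes at 78.7 to 147 CPM in AS and 60.7 to 115 CPM in CR tumors. The aminopeptidase Erap1, which trims class I peptides, also overlapped, at 76.4 to 110.2 CPM in AS and 92.6 to 124 CPM in CR tumors, as did the proteasome activator genes Psme1 and Psme2, with log2 fold changes of -0.40 (SE 0.20, adjusted p = 0.246) and -0.40 (SE 0.22, adjusted p = 0.279). Rfxap and Rfx5, subunits of the factor that binds the X box, were higher in every CR than in every AS tumor, Rfxap with TMM but not by total counts, and were not called. Of all genes tested, 8.01% lay so with TMM and 5.36% by total counts. Rfxap measured 6.32 and 5.71 CPM in AS primary tumors, 5.89 and 7.45 in AS metastases, 9.59 and 11.3 in CR primary tumors and 8.09 and 11.1 in CR metastases (adjusted p = 0.0616), and Rfx5, named after its values were seen, 10.7 to 13.5 CPM in AS and 14.7 to 18.5 CPM in CR tumors (adjusted p = 0.103). When 1 tumor was left out, Ctsd and Ctsl each stayed called in 5 of 8 fits, both losing the call without AS metastasis 1 or AS metastasis 2, Ctsd also without CR metastasis 1 and Ctsl also without AS primary tumor 2, with adjusted p up to 0.0601 and 0.0747 in edgeR's test. The median log2 fold change of this list was -0.18.

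Interferon gamma induces many of the members, and a list of 26 of its response genes was examined, of which 25 were tested. At an unadjusted p under 0.05 stood 9 of them, against 27.1% of all genes, and DESeq2 called 5, against 18.6%. Irf1 and Irf8, both interferon regulatory factors, fell, and 0 rose, so 2 of 25 was near the shares of all genes that fell, 5.29%, or were called either way, 10.1%. Irf1 measured 39.4 and 50.8 CPM in AS primary tumors, 54.7 and 48.5 in AS metastases, 27.97 and 21.6 in CR primary tumors and 17.1 and 27.7 in CR metastases, and its log2 fold change was -1.03 (SE 0.20, adjusted p = 0.0185). Irf8 measured 15.3 and 18.8 CPM in AS primary tumors, 15.7 and 15.3 in AS metastases, 7.08 and 4.93 in CR primary tumors and 3.43 and 7.29 in CR metastases, and its log2 fold change was -1.52 (SE 0.25, adjusted p = 0.0112). All CR tumors were below all AS tumors in both, a pattern found in 9.51% of all genes tested. When 1 tumor was left out, Irf8 was called in all 8 fits and Irf1 in 4, losing the call without AS primary tumor 2, either AS metastasis or CR primary tumor 2, with adjusted p up to 0.0683 in edgeR's test. Ifng itself had at most 0.121 CPM in any tumor. The median of the list was -0.17.

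The phenotypes were then compared within each tumor type. In primary tumors 56 genes were called in all (0.296%, lower 0.132%) and 0 members, with 9 members at an unadjusted p under 0.05, all lower, against 14.2% of all genes in either direction and 6.82% lower. DESeq2 called 4 members there, against 4.44% of all genes in either direction and 2.15% lower. In metastatic tumors 68 genes were called (0.360%, lower 0.228%) and 0 members, with 11 members at an unadjusted p under 0.05, all lower, against 19.9% of all genes in either direction and 11.5% lower, and DESeq2 called 5 members, against 8.76% of all genes in either direction and 4.21% lower. The log2 fold change of Nlrc5 was -2.40 (SE 0.45, adjusted p = 0.0947) in primary and -1.96 (SE 0.44, adjusted p = 0.0863) in metastatic tumors. For H2-D1 these values were -1.06 (SE 0.37, adjusted p = 0.269) and -1.34 (SE 0.38, adjusted p = 0.111), and for Psmb10 -0.83 (SE 0.35, adjusted p = 0.332) and -1.70 (SE 0.36, adjusted p = 0.0781). For Cd74 they were -2.09 (SE 0.57, adjusted p = 0.191) and -1.54 (SE 0.56, adjusted p = 0.187). A difference of the phenotype effect between tumor types was tested as an interaction. It called 0 of 18889 genes (0%) and 0 members, with 517 genes (2.74%) and 0 members at an unadjusted p under 0.05 and 0 members by DESeq2, against 0.0106% of all genes.

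Metastatic and primary tumors were compared next, and no member passed the test. In edgeR's test with tumor type as the only term 0 of 18889 genes (0%) were called, and 546 genes (2.89%) but 0 of the 36 members had an unadjusted p under 0.05. With phenotype as a covariate 0 genes were called as well, and 1213 genes (6.42%) and 1 member, H2-Ke6, had an unadjusted p under 0.05. DESeq2 called 0 members. H2-Aa had a log2 fold change of -1.10 (SE 0.78, adjusted p = 0.994), Cd74 of -0.76 (SE 0.68, adjusted p = 0.994) and B2m of -0.41 (SE 0.37, adjusted p = 0.994), metastatic over primary. The median over the members was -0.08, and -0.67 over the 9 class II genes, against -0.02 over all genes. In 1 member, H2-Ke6, which is no antigen presentation gene, did the tumor types not overlap, against 1.72% of all genes. Counts of H2-Ke6 are uncertain, since 92.3% of its read-length windows matched Gm20427, a counted gene that it overlaps on the same strand. Within AS tumors 0 genes (0%) and 0 members were called, with 462 genes (2.45%) and 0 members at an unadjusted p under 0.05. Within CR tumors 0 genes (0%) and 0 members were called, with 1462 genes (7.74%) and 2 members, H2-Ke6 and H2-Ea-ps, at an unadjusted p under 0.05. DESeq2 called 0 members in either, against 0.0582% and 0.0741% of all genes.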

How the data were processed

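Total RNA of 8 tumors was depleted of ribosomal RNA and sequenced as stranded paired-end libraries of 101 bases. The authors mapped reads to mm10 (GRCm38) with Bowtie, allowed up to 2 mismatches and a single location per read, and deposited raw counts per gene, 1 table a tumor, without normalization. The submitters' processing notes also name CASAVA 1.8.2 and TopHat2 2.0. The counting tool, its strand setting and the annotation release are not given in the sources used here. Reads of overlapping genes on opposite strands may therefore not be told apart.

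Members, gene lists and promoter patterns were chosen with earlier results of these data known. Named with per-tumor values were the main genes of each pathway step and members called in a comparison or averaging at least 10 CPM, with other members by range or count. From the other pathway lists a few preset genes and those of smallest p are named, and some listed genes are not reported here. Coordinates, gene types and exon lengths are from GENCODE M21, in which all 53 members were found, and promoters from RefSeq (GRCm38.p6).

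The main tests used edgeR 4.0.16 under R 4.3.3. Its filterByExpr with the 4 groups kept 18889 genes, libraries were scaled by TMM, and the quasi-likelihood test was followed by Benjamini-Hochberg adjustment at a threshold of 0.05. CR against AS had tumor type as a term, metastatic against primary had tumor type alone, and contrasts of 4 group means gave the within-type comparisons and the interaction. DESeq2 1.42.0, limma 3.58.1, other scalings and filters, possible pairings and each tumor left out were alternatives, and CPM by total counts was added after the data were seen. On counts simulated at the trended dispersion, the CR against AS fit (18415 genes) recovered 35% of 2-fold and 88% of 4-fold changes. The simulated tumors were independent and had no tumor type effect, and only genes above a minimum mean count were changed. These shares therefore do not cover low-count members or matched tumors. The lists covered other antigen processing, the interferon gamma response, leukocytes, macrophages, dendritic, B, T and NK cells, neutrophils, endothelium, fibroblasts, prostate epithelium, seminal vesicle, liver and lung. Figures were drawn with matplotlib 3.10.9.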

Additional observations from a re-analysis of the deposited data

Results flagged for a closer look

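Among 72 groups of 4 tumors examined (each tested member in AS and in CR tumors), 4 held a tumor whose distance from its nearest neighbor, divided by the range of the group, exceeded Dixon's 95% critical value of 0.829. Chance alone sets apart about 1 in 20 such groups. All 4 were among CR tumors. H2-K2 measured 18.5 CPM in CR primary tumor 1, against 5.32 to 7.005 CPM in the other CR tumors. H2-Q7 measured 2.23 CPM in CR metastasis 2, against 1.06 to 1.22 CPM. B2m measured 2481 CPM in CR primary tumor 2, against 1197 to 1338 CPM. Ciita measured 0.195 CPM in CR primary tumor 2, against 0.466 to 0.492 CPM, the only low value of the 4. By total counts, a scaling chosen after the data were seen, only H2-Q7 exceeded the critical value, with a ratio of 0.880, whereas H2-K2 had 0.744, B2m 0.447 and Ciita 0.565.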

How the results depend on the processing

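For CR against AS tumors, 1899 genes (10.1%) and 9 members were called. DESeq2 called 3520 genes (18.6%) and 11 members. A filter that kept every gene with a count called 3098 of 31875 genes (9.72%) and 13 of the 52 members with a count. Both held the 9 members of the main test, and all members called were lower. That filter moved the median log2 fold change of all genes to 0.11. The contrast in primary tumors only gave 56 genes and 0 members, in metastatic tumors only 68 genes and 0 members. DESeq2 gave 838 genes (4.44%) and 4 members in primary and 1654 genes (8.76%) and 5 members in metastatic tumors. The filter that kept every gene with a count gave 1132 of 31875 genes and 6 members, and 2100 of 31875 genes and 9 members. For metastatic against primary, these 2 alternatives gave 11 and 179 genes within AS tumors, 14 and 375 within CR tumors and 2 and 217 for the interaction, and 0 members in each. The cause of these differences was not tested.

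The labels give no pairing, so each of the 4 possible pairings within phenotype was fitted as a replicate block. In limma-voom, for CR against AS, these blocks gave 5, 9, 6 and 10 members and 1379, 2330, 1684 and 2847 genes. Those were 7.30, 12.3, 8.92 and 15.1% of all genes tested, so the share of all genes rose and fell in the same order. The consensus correlations were 0.066, -0.110, -0.006 and -0.182. Without a block, limma-voom called 6 members and 1659 genes (8.78%). For metastatic against primary the blocks called 0 members.

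Leaving out each tumor in turn gave 399 to 3784 genes and 1 to 13 members for CR against AS, 7 to 387 genes and 0 to 1 members in primary tumors, 5 to 1552 genes and 0 to 5 members in metastatic tumors, 0 to 235 genes for metastatic against primary within CR tumors and 0 to 82 for the interaction. It gave 0 genes for metastatic against primary over all tumors and within AS tumors, and 0 members in every comparison but those of CR against AS. A group left with 1 tumor was assumed to vary like the others, and the filter then let in more genes. For CR against AS, 1.10 to 11.6% of all genes tested were called lower when 1 tumor was left out. Over the alternatives of CR against AS, 31 of the 36 log2 fold changes kept their sign; that of H2-DMb1 changed sign in 9 of 19 (-0.34 to 0.15), H2-DMb2 in 1 of 19, H2-M11 in 9 of 18, H2-M9 in 3 of 19 and H2-Q10 in 1 of 18. With 2 tumors a group and CR libraries of lower depth, genes under about 1 CPM, most of class II among them, were measured least precisely.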

Other observations

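Of the 25 interferon gamma response genes tested, 9 were highest of all 8 tumors in CR metastasis 2 and 6 in AS metastasis 1, a count made after the values were seen. How often each tumor was highest over all genes was not counted, so these counts have no share to be read against. CR metastasis 2 was also the shallowest library, with 20905806 counts. The guanylate binding protein genes Gbp2, Gbp3 and Gbp7 measured 26.9, 16.8 and 40.98 CPM in CR metastasis 2, against at most 16.1, 8.60 and 23.96 CPM in the other 7 tumors, and the interferon-induced GTPase gene Iigp1 measured 27.01 against at most 12.5 CPM. In CR metastasis 2, Nlrc5 was 1.42, H2-K1 46.6, H2-D1 175, Psmb10 7.09 and Psmb9 1.86 CPM, with TMM below every AS tumor. Tap1, at 8.42 CPM, Tap2, at 12.6 CPM, and Psmb8, at 9.39 CPM, were within the AS range. These are values of 1 tumor, with no test.

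Ido1, which encodes a tryptophan-degrading enzyme induced by interferon gamma, measured 1.26 and 5.20 CPM in AS primary tumors, 4.53 and 11.3 in AS metastases, 21.2 and 5.32 in CR primary tumors and 8.58 and 20.8 in CR metastases. It was not called (adjusted p = 0.162 in edgeR's test). Mr1, the class I-like gene that presents vitamin metabolites, was above all AS tumors in every CR tumor, at 3.62 to 6.56 against 1.26 to 3.56 CPM, and was not called either (adjusted p = 0.0569). Of all genes tested, 8.01% showed this pattern with TMM and 5.36% by total counts.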
